A study of Mus musculus with 8 samples.

Results

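The vascular Notch pathway was described through 10 genes in the left ventricle (LV) of mice under angiotensin II (angII) infusion: the ligands Dll4, Jag1 and Jag2, the receptors Notch1, Notch3 and Notch4, the nuclear mediator Rbpj and the target genes Hey1, Hey2 and Heyl. These members were found by gene name in a table of read counts for 46040 genes, and all 10 were among the 13542 genes with enough reads to be tested. The study asked how loss of VEGFR-1 kinase signaling affects the heart under pressure overload, and compared VEGFR-1 TK-/- mice with littermate control mice. There were 4 libraries per genotype, each made from LV tissue on day 14 of the infusion. All mice were males of 5 to 7 months on the C57BL/6 strain, and all received angII at 0.1 mg/kg/h from a subcutaneous minipump, so both groups share the treatment and no untreated heart enters the comparison. VEGFR-1 TK-/- mice carry in every cell a Flt1 allele (Flt1 encodes VEGFR-1) that lacks the tyrosine kinase domain and keeps the ligand-binding part. Hearts were taken from mice that lived to day 14, which limits both groups to survivors.

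The labels of these libraries contradict each other. In each case the genotype tag and library name give one genotype and the title of the sample gives the other. Libraries were grouped here by library name, as control-tagged and TK-/- tagged, and every difference below sets the second group against the first. By the titles, every sign reverses and no p-value changes. Flt1 itself was counted at 67.4, 68.4, 56.9 and 84.3 normalized CPM (counts scaled to library size and normalized for composition) in the control-tagged libraries and at 144, 149, 169.6 and 168 in those tagged TK-/-. Its log2 fold change was 1.19 with an SE of 0.12 (FDR = 0.00808). Counts per gene do not show which exons were read, so it does not settle the labels. Acta1, the skeletal actin that rises in hypertrophied myocardium, had means of 4770 CPM in control-tagged and 1676 CPM in TK-/- tagged libraries, without overlap, and a log2 fold change of -1.51 (SE 0.22, FDR = 0.152), whose sign also reverses by the titles. No gene's level was used to choose between the labels. Library names also refer to cardiomyocytes, although the source is given as LV tissue. The tissue holds RNA of all cardiac cell types, and fewer cells of a type cannot be told apart from less RNA per cell.

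Notch signaling passes between touching cells. A ligand on one cell binds a receptor on its neighbour, proteases release the intracellular part of the receptor, and this part enters the nucleus, binds RBPJ on DNA and turns on target genes, among them the HEY repressors. In blood vessels, Dll4 and Notch1 restrain sprouting and help to set arterial identity, Notch4 is found mainly in endothelium, and Notch3 is the receptor of mural cells, that is pericytes and vascular smooth muscle. The pathway is linked to VEGF because VEGF induces Dll4 in endothelial cells.

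RBPJ binds DNA at a core of the letters TGGGAA. Promoter windows from 250 bases before to 50 bases after a transcription start were taken from RefSeq, where 8 of the 10 members matched with 9 windows, and Hey1 and Heyl are named only. Shown are the windows of Notch1 and Notch3, receptors with lower values in the TK-/- tagged libraries, and of Hey2 and Rbpj, the members with values that were not lower. Each is written 5' to 3' on the strand of its gene, and capitals mark TGGGAA or its reverse complement TTCCCA.

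Notch1, GRCm38.p6, chr2:26503773-26504072, minus strand: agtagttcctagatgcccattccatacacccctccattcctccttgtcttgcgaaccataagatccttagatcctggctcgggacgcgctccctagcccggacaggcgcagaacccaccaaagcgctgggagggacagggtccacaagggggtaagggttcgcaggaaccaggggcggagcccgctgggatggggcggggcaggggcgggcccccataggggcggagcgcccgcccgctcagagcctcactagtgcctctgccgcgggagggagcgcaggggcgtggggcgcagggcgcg
Notch3, GRCm38.p6, chr17:32166841-32167140, minus strand: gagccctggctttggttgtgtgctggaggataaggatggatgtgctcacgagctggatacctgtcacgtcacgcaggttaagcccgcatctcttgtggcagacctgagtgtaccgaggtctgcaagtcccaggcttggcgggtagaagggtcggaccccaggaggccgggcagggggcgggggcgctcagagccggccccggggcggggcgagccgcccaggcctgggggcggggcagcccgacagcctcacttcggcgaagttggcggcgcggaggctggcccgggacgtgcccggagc
Hey2, GRCm38.p6, chr10:30842734-30843033, minus strand: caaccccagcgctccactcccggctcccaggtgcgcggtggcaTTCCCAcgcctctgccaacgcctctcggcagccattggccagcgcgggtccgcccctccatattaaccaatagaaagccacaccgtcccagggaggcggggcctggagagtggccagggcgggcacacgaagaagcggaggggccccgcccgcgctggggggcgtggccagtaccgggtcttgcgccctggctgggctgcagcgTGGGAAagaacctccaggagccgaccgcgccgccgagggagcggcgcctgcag
Rbpj, GRCm38.p6, chr5:53590096-53590395, plus strand: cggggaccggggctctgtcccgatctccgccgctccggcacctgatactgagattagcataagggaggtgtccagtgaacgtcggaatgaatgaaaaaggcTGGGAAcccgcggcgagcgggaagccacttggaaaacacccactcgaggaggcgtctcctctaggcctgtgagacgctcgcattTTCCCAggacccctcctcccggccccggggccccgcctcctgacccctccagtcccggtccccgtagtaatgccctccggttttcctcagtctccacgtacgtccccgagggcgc

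The letters occurred in neither the Notch1 nor the Notch3 window, which says only that they are not in these 300 bases. Of the member windows, only that of Notch3 had an end found in no annotated transcript of its gene. The start site used for Notch3 is therefore less certain. Hey2 held TTCCCA from -207 to -202 and TGGGAA from -3 to 3, counted from the start site. The Rbpj window shown held TGGGAA from -149 to -144 and TTCCCA from -65 to -60. A second Rbpj window, which overlaps the first, repeats the latter match. Notch4, Dll4, Jag1 and Jag2 held none. On either strand, TGGGAA was found in 8397 of 32851 promoter windows of this length (25.6%). The letters CACGTG or CACGCG, bound by HEY factors, were found on either strand in 15.4% of these windows and lay in those of all 3 ligands, with 1 match in Dll4, 2 in Jag1 and 1 in Jag2. CACGTG is its own reverse complement, and neither set of letters overlaps the other. These matches describe the letters and do not show binding.

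Libraries held 12349639 to 16239670 counts in the control-tagged group and 11449137 to 13505888 in the TK-/- tagged group. Every member except Hey2 had at least 180 counts in each library, and Hey2 had 40 to 61 counts. Control-tagged replicate 2 stood apart by its cardiomyocyte markers, whose summed level was 67736 CPM against 87051 to 106738 CPM in the other libraries. Values of members, their ratios and their differences from markers that move by over 1.5 times without it are given both ways. Values of the markers themselves are given with this library included. The labels number the libraries of a group but do not name the animals, so p-values measure the spread between these libraries.

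By length, the ligands Dll4 and Jag2 and the receptor Notch4 were the most abundant members. Levels per kilobase of exon (RPKM, mean of 8 libraries) were 12.2 for Dll4, 11.8 for Jag2 and 10.5 for Notch4, followed by Heyl at 8.37, Notch3 at 7.36, Hey1 at 6.97 and Notch1 at 5.90. Jag1 followed at 3.51, Rbpj at 1.91 and Hey2 at 0.860. Neighbours within the upper part of this order were not separated: Dll4 was above Jag2 in 4 of 8 libraries, Jag2 above Notch4 in 5, Notch3 above Hey1 in 5 and Hey1 above Notch1 in 4. Heyl was above Notch3 in 7 of 8 libraries. Notch4 was above Heyl, Notch1 above Jag1, Jag1 above Rbpj and Rbpj above Hey2 in all 8. Lengths are those of all annotated exons merged, so a gene with exons that the heart does not use is placed too low.

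**Figure D1:**
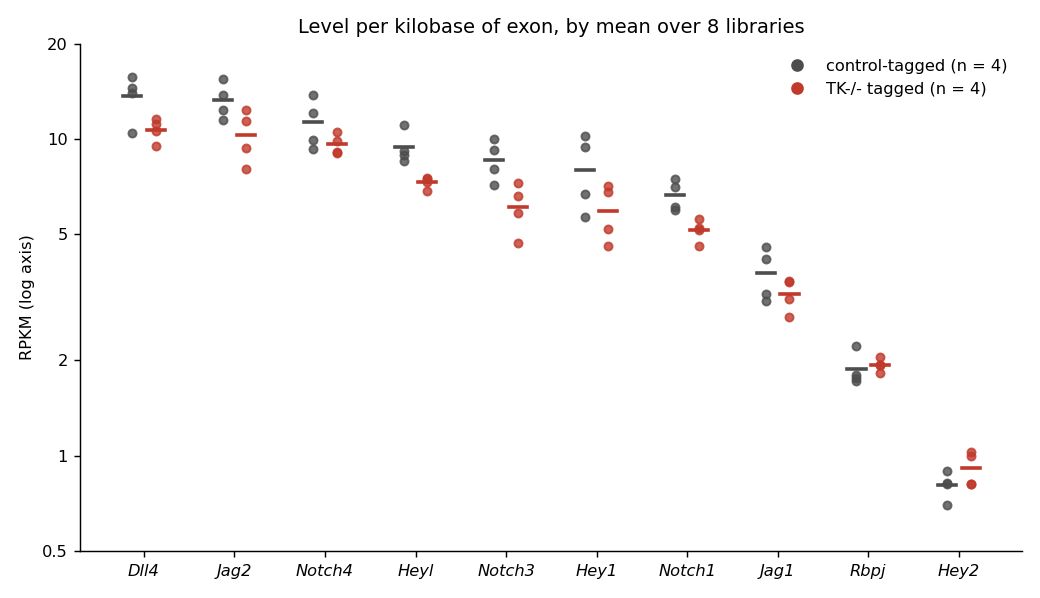
RPKM (log axis) of the 10 members, ordered by their mean over 8 libraries. Points are libraries and bars are group means (n = 4). Dll4 (12.2), Jag2 (11.8) and Notch4 (10.5) lie at the top with overlapping points, and Jag1 (3.51), Rbpj (1.91) and Hey2 (0.860) form separate steps at the bottom.

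No member passed the test of the study's thresholds, an FDR under 0.1 with a change of at least 1.5-fold, where FDR is the p-value of the edgeR quasi-likelihood test adjusted over all 13542 genes. The call was met by 1 gene, Flt1, or 0.00738% of all genes tested. Before adjustment, 6 of 10 members were lower in the TK-/- tagged libraries at p under 0.05 (Notch1, Notch3, Dll4, Jag2, Hey1 and Heyl), against 5.64% of all genes, and 0 were higher, against 3.32%. By sign alone, 8 of 10 members were lower, against 50.3% of all genes. The median log2 fold change of the members was -0.35, with -0.00 over all genes tested. The groups did not overlap for 2 members, Notch1 and Heyl, both lower, against 2.53% of all genes lower without overlap and 4.98% in either direction. Members were chosen with earlier results of these data known. Their counts beside the shares of all genes are therefore a description and not a test. The count at p under 0.05 rested in part on control-tagged replicate 4, without which it was 3 (Notch1, Notch3 and Heyl). Without control-tagged replicate 2 it was 5, with Hey1 no longer among them, and 3 members did not overlap between groups (Notch1, Heyl and Rbpj). Over all genes, the number lower at p under 0.05 was 764 with all libraries, 692 without control-tagged replicate 4 and 609 without replicate 2. Without control-tagged replicate 1, 5 members did not overlap between groups (Notch1, Notch3, Dll4, Jag2 and Heyl). With 3 libraries against 4, groups separate more easily. The share of all genes without overlap is not given for these fits, so these counts have no background beside them.

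**Figure D2:**
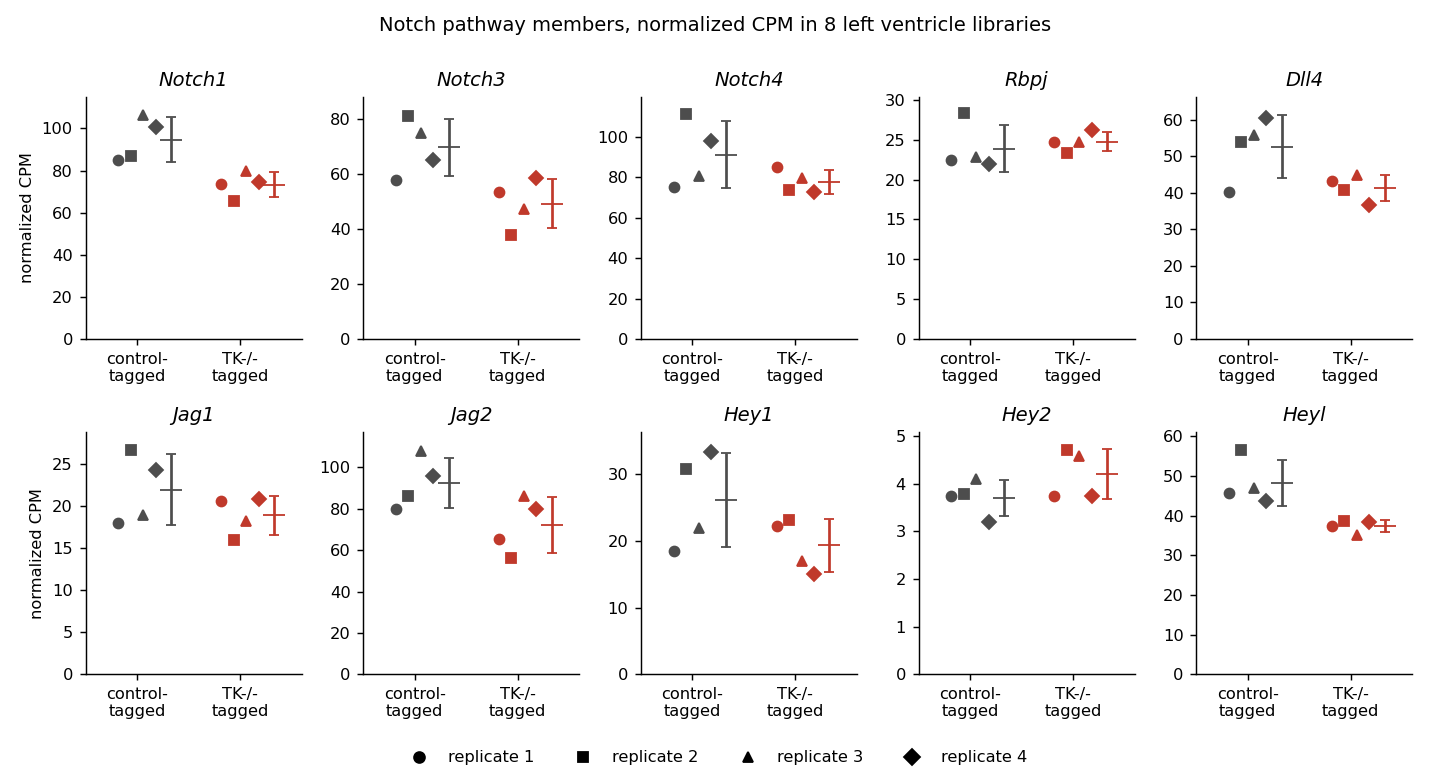
Normalized CPM of the 10 members in each library, with the group mean ± SD beside the points (n = 4 per group) and the replicate number shown by the marker. Groups are separate for Notch1 (84.8 to 106.5 against 65.5 to 79.8) and Heyl (43.6 to 56.5 against 35.1 to 38.6) and overlap for the other 8 members.

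Among the ligands, Dll4 and Jag2 were lower in the TK-/- tagged libraries before adjustment and Jag1 was not separated from no change. Dll4, the ligand of arterial and sprouting endothelium, was counted at 40.3, 53.9, 55.8 and 60.5 CPM in the control-tagged libraries and at 43.1, 40.8, 44.7 and 36.6 CPM in the TK-/- tagged libraries. Of the control-tagged libraries, replicates 2 to 4 lay above all TK-/- tagged ones and replicate 1 lay among them. Its log2 fold change was -0.35 (SE 0.13, 95% interval -0.62 to -0.07, unadjusted p = 0.0172, FDR = 0.486), and the exact 2-sided permutation test gave p = 0.114. An antisense gene, Gm14207, shares 214 exon bases with Dll4 and had 13 to 36 counts of its own. It is not stated whether the counting used strand.

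Jag2, a ligand of the Jagged type, was at 79.9, 86.0, 107.8 and 95.8 CPM in the control-tagged libraries and at 65.6, 56.3, 86.3 and 79.8 CPM in the TK-/- tagged libraries. The groups overlapped through TK-/- tagged replicate 3. The log2 fold change of Jag2 was -0.36 (SE 0.14, 95% interval -0.67 to -0.05, unadjusted p = 0.0260, FDR = 0.508), with p = 0.114 by the exact permutation test. Jag1, which endothelial cells present to mural cells, was at 18.0, 26.6, 18.9 and 24.3 CPM against 20.6, 15.98, 18.2 and 20.8 CPM. Control-tagged replicates 2 and 4 were high and the other 6 libraries lay between 15.98 and 20.8. For Jag1 the log2 fold change was -0.21 (SE 0.15, 95% interval -0.53 to 0.11, FDR = 0.694), an interval that holds both 0 and the values of Dll4 and Jag2. Without control-tagged replicate 2 it was -0.11. The ratio of Dll4 to Jag1 within a library, on the log2 scale, was 1.26 ± 0.23 (SD) in control-tagged and 1.13 ± 0.25 in TK-/- tagged libraries, a difference of -0.13 (p = 0.457, exact permutation test, n = 4 per group), and of -0.21 (p = 0.314, exact permutation test) without that library.

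Of the receptors, Notch1 and Notch3 were lower before adjustment and Notch4 was lower by sign only. Notch1, the main receptor of arterial endothelium, was at 84.8, 86.7, 106.5 and 100.7 CPM in the control-tagged libraries and at 73.5, 65.5, 79.8 and 74.6 CPM in the TK-/- tagged libraries. Each control-tagged library lay above each TK-/- tagged one. The means were 94.7 ± 10.6 and 73.3 ± 5.90 CPM (SD, n = 4), which gave a log2 fold change of -0.37 (SE 0.10, 95% interval -0.59 to -0.14, unadjusted p = 0.00400, FDR = 0.442). The exact permutation test gave p = 0.0286, the smallest it allows with 4 against 4. On the opposite strand of Notch1, the genes 0610009E02Rik and Gm13568 share 1068 and 414 exon bases with it, and they had 14 to 32 and 0 to 4 counts, against at least 738 for Notch1.

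Notch3, the receptor of mural cells, had the lowest log2 fold change of the 10 members. It was at 57.9, 81.1, 75.1 and 65.0 CPM in the control-tagged libraries and at 53.4, 37.9, 47.2 and 58.7 CPM in the TK-/- tagged libraries. The groups overlapped only in that TK-/- tagged replicate 4 lay just above control-tagged replicate 1. Its means were 69.8 ± 10.3 and 49.3 ± 8.94 CPM (SD, n = 4), which gave a log2 fold change of -0.50 (SE 0.14, 95% interval -0.81 to -0.19, unadjusted p = 0.00477, FDR = 0.453). The exact permutation test gave p = 0.0571. An overlapping gene on the other strand, Gm17276, had 4 to 10 counts.

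Notch4, a receptor found mainly in endothelial cells, was at 75.2, 111, 80.4 and 97.7 CPM against 85.2, 73.6, 79.4 and 72.7 CPM. Control-tagged replicates 2 and 4 were high, as for Jag1, and the other 6 libraries lay between 72.7 and 85.2. Its log2 fold change was -0.23 (SE 0.12, 95% interval -0.50 to 0.04, FDR = 0.616), and it was -0.12 without control-tagged replicate 2. The log2 ratio of Notch1 to Notch3 was 0.44 ± 0.24 in control-tagged and 0.59 ± 0.22 (SD) in TK-/- tagged libraries, and that of Notch1 to Notch4 was 0.07 ± 0.32 and -0.08 ± 0.13. Neither difference was larger than the spread between libraries (p = 0.457 and 0.429, exact permutation tests, n = 4). Without control-tagged replicate 2, the difference for Notch1 to Notch4 was -0.29. Its exact permutation p was 0.0286, the smallest that 3 against 4 allows. That for Notch1 to Notch3 was 0.03 (p = 0.857, exact permutation test).

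Rbpj, the DNA-binding mediator that all Notch receptors use, was not lower. It was at 22.5, 28.3, 22.9 and 21.9 CPM in the control-tagged libraries and at 24.7, 23.3, 24.7 and 26.2 CPM in the TK-/- tagged libraries. Control-tagged replicate 2 was the highest of all 8 libraries, and the other 3 of its group were below all TK-/- tagged ones. The log2 fold change was 0.05 (SE 0.11, 95% interval -0.18 to 0.28, FDR = 0.916). Without control-tagged replicate 2 the Rbpj value was 0.14, and without any one of the other 3, or without TK-/- tagged replicate 4, it was 0.01 to 0.03.

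The target genes differed in sign. Heyl, a target of Notch3 in mural cells, was at 45.7, 56.5, 46.9 and 43.6 CPM in the control-tagged libraries and at 37.5, 38.6, 35.1 and 38.4 CPM in the TK-/- tagged libraries. The groups did not overlap, and the TK-/- tagged libraries lay close together. Its means were 48.2 ± 5.73 and 37.4 ± 1.62 CPM (SD, n = 4), which gave a log2 fold change of -0.37 (SE 0.10, 95% interval -0.58 to -0.15, unadjusted p = 0.00324, FDR = 0.442), with the smallest possible exact permutation p of 0.0286. Hey1, an endothelial target of Dll4 and Notch1, was at 18.6, 30.8, 21.9 and 33.3 CPM against 22.3, 23.2, 17.0 and 15.0 CPM. Its control-tagged libraries spread widely, with replicates 2 and 4 high and replicates 1 and 3 below 2 TK-/- tagged libraries. For Hey1 the log2 fold change was -0.44 (SE 0.20, 95% interval -0.87 to -0.00, unadjusted p = 0.0491, FDR = 0.556), and p was 0.171 by the exact permutation test.

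Hey2, which ventricular cardiomyocytes also express, was the member of lowest level. It was at 3.74, 3.77, 4.10 and 3.20 CPM in the control-tagged libraries and at 3.74, 4.71, 4.58 and 3.75 CPM in the TK-/- tagged libraries. TK-/- tagged replicates 2 and 3 were high, and the others lay within the control-tagged range. The log2 fold change of 0.17 (SE 0.17, 95% interval -0.21 to 0.56, FDR = 0.798) did not exceed the spread between libraries, and it was 0.11 without control-tagged replicate 4 or without TK-/- tagged replicate 2. The log2 ratio of Hey1 to Hey2 was 2.73 ± 0.50 in control-tagged and 2.15 ± 0.30 (SD) in TK-/- tagged libraries (difference -0.58, p = 0.114, exact permutation test, n = 4). That of Heyl to Hey1 was 0.91 ± 0.39 and 0.97 ± 0.29, a difference of 0.06 (p = 0.83, exact permutation test). None of the 5 ratios compared had an exact permutation p under 0.05.

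**Figure D3:**
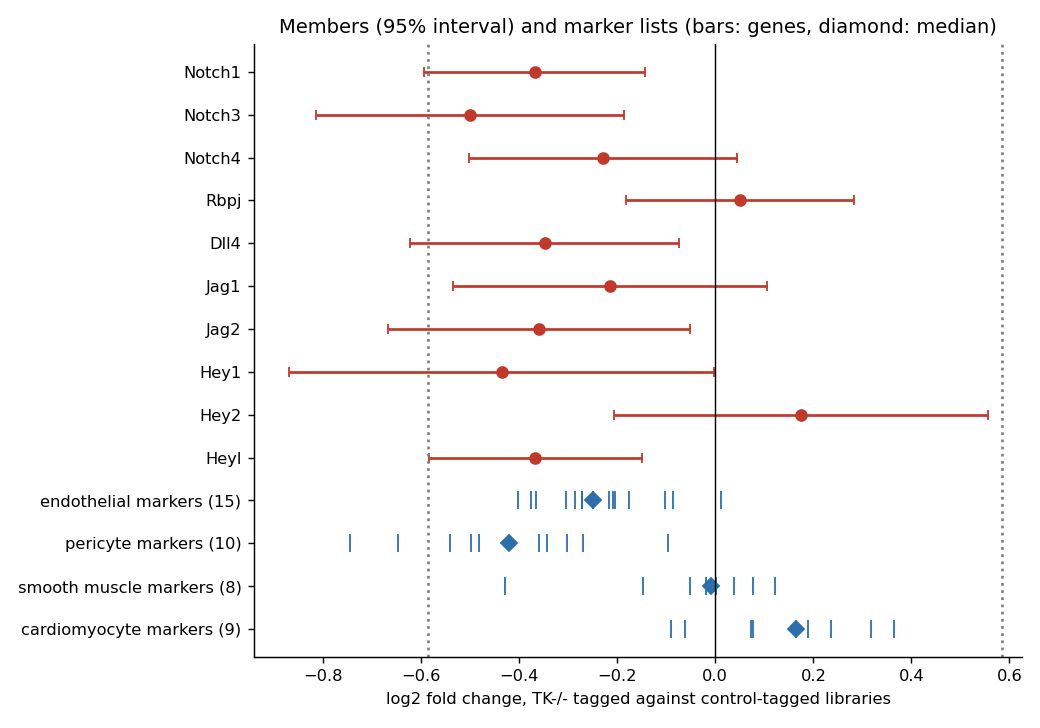
Log2 fold change of each member with its 95% interval (red), and of the genes of 4 cell type marker lists (blue bars, with a diamond at the median). Dotted lines mark a change of 1.5-fold. Intervals of Notch1, Notch3, Dll4, Jag2, Hey1 and Heyl lie below 0, and the endothelial (-0.25) and pericyte (-0.42) medians are lower as well.

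Markers of endothelial cells and pericytes were lower along with the members. Of 15 endothelial markers, which hold none of the members, 14 were lower in the TK-/- tagged libraries and 7 had an unadjusted p under 0.05, with a median log2 fold change of -0.25 and a range from -0.40 for Tie1 to 0.01 for Kdr. Their summed level was 2287 to 2814 CPM in control-tagged and 2085 to 2307 CPM in TK-/- tagged libraries, and the mean log2 level differed by -0.24 (p = 0.0571, exact permutation test, n = 4). All 10 pericyte markers were lower, 7 at p under 0.05, from -0.74 for Foxs1 to -0.10 for Abcc9, with a median of -0.42. The pericyte sum was 1164 to 1658 CPM against 863 to 1173 CPM, and the mean log2 level differed by -0.42 (p = 0.0286, exact permutation test, n = 4). None of the genes on either list passed the FDR threshold. Of all genes, 50.3% were lower by sign and 5.64% were lower at an unadjusted p under 0.05. The marker lists were also chosen with earlier results of these data known. Their counts and permutation p-values, here and below, are therefore descriptions and not tests. In the exact permutation test, 0.0286 is the smallest p that 4 against 4 allows.

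Smooth muscle markers were split in sign: 4 of 8 were lower, 0 at p under 0.05, from -0.43 for Acta2 to 0.12 for Smtn, with a median of -0.01. The smooth muscle sum was 614 to 1101 CPM against 538 to 800.1 CPM, and the mean log2 level differed by -0.05 (p = 0.714, exact permutation test). Of 9 cardiomyocyte markers 7 were higher, 2 at p under 0.05, with a median of 0.16 and a range from -0.09 for Actc1 to 0.36 for Tnni3. The cardiomyocyte sum was 67736 to 104194 CPM in control-tagged and 87051 to 106738 CPM in TK-/- tagged libraries, and its lowest value came from control-tagged replicate 2. The signs and the median of the cardiomyocyte markers include this library and are not given without it. All 3 endocardial markers were lower, from -0.51 for Cytl1 to -0.20 for Npr3, 0 of them at p under 0.05 or without overlap between groups. Their sum was 23.9 to 30.6 CPM against 17.4 to 25.2 CPM, with a mean difference of -0.40. Its exact permutation p was 0.0286, the smallest that 4 against 4 allows. No marker of these 5 lists was at 0 in all libraries. Their part in the members' values was not tested.

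Levels of the members were then set against the mean log2 level of the markers in the same library. The 14 comparisons have unadjusted exact permutation p-values. Members and marker lists were both chosen with earlier results of these data known, so these p-values are descriptions too. Relative to endothelial markers, Notch1 differed by -0.13 (p = 0.229), Notch4 by 0.02 (p = 0.886), Dll4 by -0.10 (p = 0.371), Jag1 by 0.03 (p = 0.857), Jag2 by -0.13 (p = 0.429) and Hey1 by -0.18 (p = 0.4), all by exact permutation. None of these 6 receptor, ligand and target genes differed by more than the spread between libraries. Without control-tagged replicate 2, the values were -0.20 for Notch1, 0.09 for Notch4, 0.10 for Jag1 and -0.12 for Hey1, with exact permutation p of 0.0571, 0.371, 0.457 and 0.629. Against endothelial markers, Rbpj differed by 0.29 (p = 0.0286, exact permutation, the smallest value that 4 against 4 allows). It was at -2.32 ± 0.14 in control-tagged and -2.03 ± 0.10 (SD) in TK-/- tagged libraries. Hey2 differed by 0.40 (p = 0.0571, exact permutation). The log2 fold changes of Rbpj and Hey2 themselves were 0.05 and 0.17, and the endothelial marker mean differed by -0.24. Most of the Rbpj value therefore comes from the subtracted markers.

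For the mural genes Notch3 and Heyl the value varied with the marker list. Notch3 differed by -0.08 relative to pericyte markers (p = 0.286), by -0.27 relative to endothelial markers (p = 0.0857) and by -0.45 relative to smooth muscle markers (p = 0.0286), each by exact permutation. Heyl differed by 0.07 from pericyte, -0.31 from smooth muscle and -0.12 from endothelial markers (exact permutation p = 0.714, 0.229 and 0.229). Without control-tagged replicate 2, Notch3 differed by -0.30 from smooth muscle markers (p = 0.0857, exact permutation), and Heyl by -0.15 from smooth muscle and by -0.08 from endothelial markers (exact permutation p = 0.429 and 0.457). With the summed marker level in place of the mean, the value of Notch3 against smooth muscle was -0.40 (p = 0.114, exact permutation), which left 1 of the 14 comparisons at p under 0.05 in place of 2. Without TK-/- tagged replicate 2 or 3, 0 of the 14 remained at p under 0.05, and without control-tagged replicate 2, 3 or 4, 1 did.

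**Figure D4:**
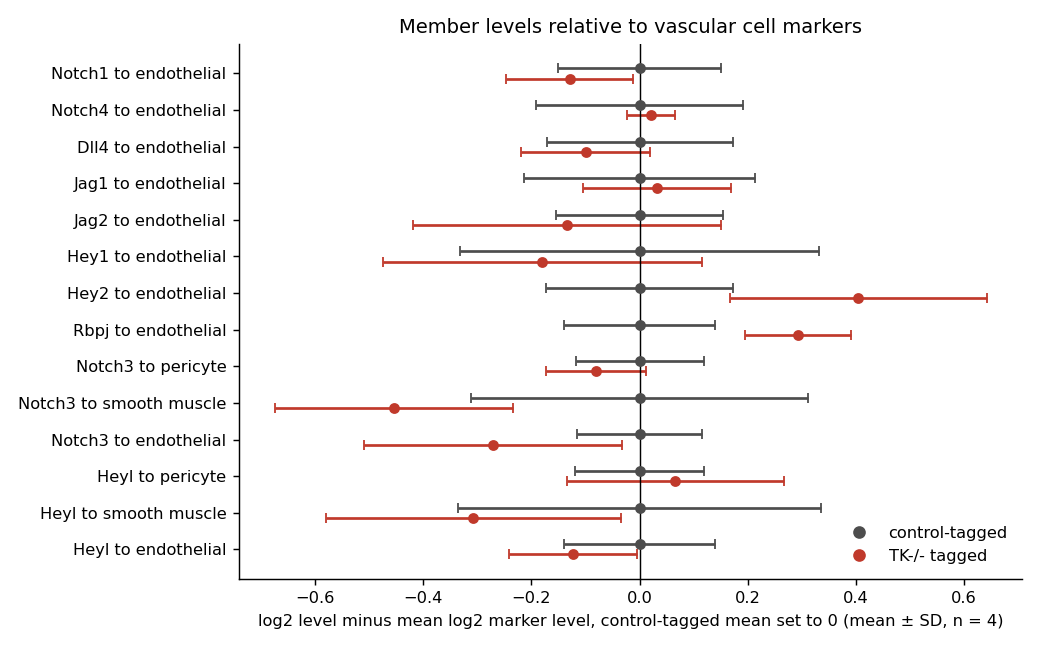
Member level minus the mean log2 level of a marker list in the same library, with the mean of the control-tagged libraries set to 0 (points are group means and bars are SD, n = 4 per group). Rbpj lies 0.29 higher relative to endothelial markers, whose mean itself differs by -0.24, while Rbpj alone differs by 0.05. Notch3 lies 0.45 lower relative to smooth muscle markers but 0.08 lower relative to pericyte markers.

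Beyond the members, 73 further genes of the pathway were listed by role, of which 65 were tested. These lists were also chosen with earlier results of these data known, so their counts are descriptions. By the quasi-likelihood test 0 were called, 9 were lower at an unadjusted p under 0.05 and 0 were higher, where all genes had 5.64% and 3.32%. Counting signs, 47 were lower and 18 higher, where 50.3% of all genes were lower, and the median log2 fold change was -0.12. The groups did not overlap for 6, all of them lower, against 2.53% of all genes lower without overlap and 4.98% in either direction. The count of 9 was 4 without TK-/- tagged replicate 2 and 5 without replicate 3 of that group. Over all genes, the number lower at p under 0.05 also fell, from 764 to 462 and 531 in these fits. Dll3, Dlk1, Dlk2, Dner, Hes2, Hes3, Hes5 and Hes7 were too low to test, with at most 10 counts in any library.

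The gene with the lowest log2 fold change of these 65 was Neurl1b, an E3 ubiquitin ligase that drives the endocytosis of Notch ligands, the step by which a ligand pulls on its receptor. Neurl1b was at 20.9, 22.0, 21.2 and 23.4 CPM in the control-tagged libraries and at 15.4, 11.1, 15.3 and 14.6 CPM in the TK-/- tagged libraries. The groups were separate by more than the range within the control-tagged group. Its log2 fold change was -0.63 (SE 0.12, unadjusted p = 0.000237, FDR = 0.442). It was not called by the quasi-likelihood test and was called by the likelihood ratio test of edgeR, the test that the study used (FDR = 0.00635), by DESeq2 (FDR = 0.00712) and when low counts were not filtered out (FDR = 0.0870). The other genes on this list, Mib1, Mib2, Neurl1a, Neurl2 and Neurl3, had p-values over 0.05, and Neurl2 was the most abundant of them by length at 33.3 RPKM. Whether each of them acts on Notch ligands in the heart was not tested.

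On the signal-sending and receiving side, 5 of 5 tested ligands and receptors outside the members were lower, 1 at p under 0.05. This was Mfap5, a microfibril protein that can bind Notch and Jagged proteins (log2 fold change -0.54, FDR = 0.539). Notch2, the receptor not among the members, was at -0.06, and Egfl7, a secreted endothelial protein that was the most abundant of this list at 57.6 RPKM and is also among the endothelial markers, was at -0.21. Of 5 glycosyltransferases that modify the receptors, 4 were lower and 0 had p under 0.05. Pofut1, which adds O-fucose, did not overlap between groups at a log2 fold change of -0.12, Lfng was at -0.37, and Rfng was the most abundant at 9.39 RPKM. Among 10 genes of receptor cleavage, 7 were lower and 1, the sheddase Adam17, had p under 0.05 (-0.25, FDR = 0.492). The gamma-secretase subunit Ncstn was the most abundant of them at 19.0 RPKM.

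In the nucleus, of 8 coactivators, 5 were lower and 0 had p under 0.05, with Kat2b the most abundant at 15.97 RPKM. Of 13 corepressors, 8 were lower and 3 had p under 0.05. These were Tle1 (-0.33) and Tle3 (-0.36), Groucho proteins that HES and HEY repressors recruit, and the histone deacetylase Hdac1 (-0.30). The groups did not overlap for Tle1 and Tle3. Ctbp1 was the most abundant corepressor at 48.8 RPKM. Among 11 genes of receptor turnover, 6 were lower and 1, the Numb relative Numbl, had p under 0.05 (-0.35), and the ubiquitin ligase Nedd4 was the most abundant at 44.3 RPKM.

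Further target genes were all lower by sign, 8 of 8 tested, and 2 had p under 0.05. These were Snai1, a repressor linked to mesenchymal transition (-0.62, FDR = 0.468), and the cyclin Ccnd1 (-0.27, FDR = 0.521), the most abundant of the list at 24.2 RPKM. Hes1, Nrarp and Efnb2, targets that vessels share with other tissues, were at -0.20, -0.29 and -0.17 with p-values over 0.05. Most genes of arterial and of venous endothelium were lower by sign. Of 11 arterial genes, 10 were lower and 3 had p under 0.05: Unc5b (-0.47), Sox7 (-0.36) and the connexin Gja4 (-0.34), with a median of -0.17 and Sox18 the most abundant at 62.7 RPKM. Of 5 venous genes, 5 were lower and 3 had p under 0.05: Vwf (-0.62), Nrp2 (-0.38) and Ephb4 (-0.27), with a median of -0.38. Ephb4 was the most abundant of these at 26.3 RPKM, and for Vwf and Ephb4 the groups did not overlap. Of all genes, 50.3% were lower by sign, 5.64% were lower at p under 0.05 and 2.53% were lower without overlap. The general endothelial markers were also lower, 14 of 15 by sign and 7 at p under 0.05. The difference between the arterial and the venous list was not tested. None of these genes was called by the quasi-likelihood test, and the likelihood ratio test called Vwf (FDR = 0.0921). The value of Vwf was -0.40 without control-tagged replicate 3, where it was at 115.7 CPM against 66.2 to 72.8 CPM in the other control-tagged libraries.

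**Figure D5:**
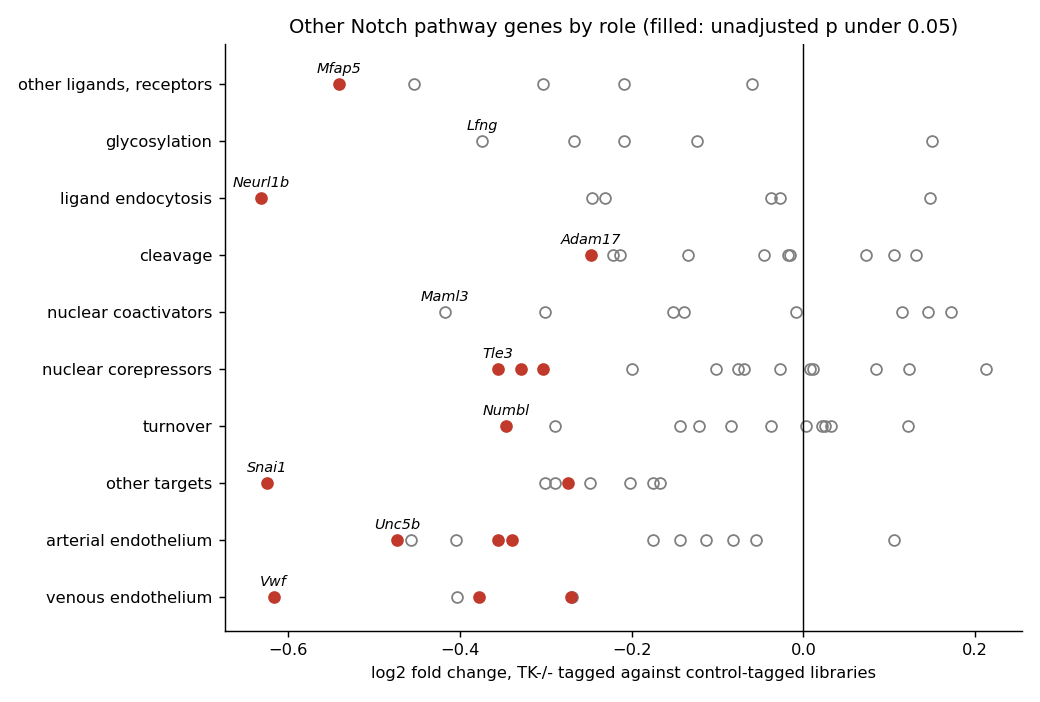
Log2 fold change of each tested gene of the further pathway lists and of the arterial and venous lists, by role. Filled points have an unadjusted p under 0.05, and the gene with the lowest value of each list is named. All filled points lie below 0, with Neurl1b (-0.63), Snai1 (-0.62) and Vwf (-0.62) farthest from it.

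Across the 8 libraries the members followed a few patterns, given here as descriptions because all points share the groups and the scaling. Control-tagged replicate 1 was the lowest of its group for 7 of 10 members and also had the lowest endothelial and pericyte sums of its group. TK-/- tagged replicate 2 was the lowest of all libraries for Notch1, Notch3, Jag1 and Jag2 and for both sums. Notch1 and Jag2 had a Pearson r of 0.93 between their log2 levels, and 0.90 with the group means removed. For Notch4 and Jag1 these values were 0.88 and 0.85, and for Notch4 and Hey1 0.83 and 0.76. Notch1 and Dll4 had 0.81 and 0.59, and Dll4 and Hey1 0.80 and 0.69. Notch3 and Heyl had 0.80, and 0.43 with the group means removed. Other pairs went the other way: Jag1 and Hey2 had -0.73 and -0.65. Notch1 and Heyl had 0.56, but -0.52 with the group means removed.

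Over all genes tested and 8 libraries, the genes with the highest Pearson r to a member were Tppp3 (0.98), Ephb1 (0.97) and Tspan11 (0.96) for Notch1. For Notch3 they were Anxa2 (0.99), Rapgef5 (0.98) and Asap2 (0.98), and for Notch4 Srgap2 (0.97), Ccdc142 (0.96) and Apbb2 (0.95). The ligand Dll4 was followed by Plekhg5 (0.95), Ablim3 (0.95) and Hspa12b (0.93), Jag1 by Lrrc8c, Tnfsf13 and Nr2f2 (each 0.98), and Jag2 by Rhob (0.98), Ifitm1 (0.97) and 4931406P16Rik (0.97). Nr2f2 is a venous endothelial transcription factor. Hey1 was followed by 2810029C07Rik (0.97), Zbtb7c (0.96) and Usb1 (0.95), and Hey2 by Myo5c (0.98), Kdm8 (0.97) and Mthfsd (0.96). The genes for Heyl were Acta1 (0.98), the basement membrane gene Nid2 (0.98) and Kif23 (0.98), and those for Rbpj included Tlr13 (0.95) and Brd8 (0.94). These genes were picked as the highest of 13542 over 8 libraries, and no test was made.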

How the data were processed

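RNA of LV tissue was sequenced in 8 libraries, 4 per group. The authors trimmed reads with Trim Galore 0.4.4, aligned them to GRCm38 with STAR 2.5.4b and counted them on GENCODE M16 genes with featureCounts. They deposited raw counts per gene for 8 libraries, and all columns were used. The labels describe depletion of ribosomal RNA where the methods describe poly-A selection. Whether strand was used and how reads with several alignments were counted is not given in the sources used here, so reads of antisense genes and paralogs may be included.

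The authors' counts were tested with edgeR 4.0.16 in R 4.3.3 (TMM, glmQLFit and glmQLFTest, no covariates, all 8 libraries), after genes that reached a CPM of 1 in fewer than 2 libraries were dropped, which kept 13542. FDR is Benjamini-Hochberg adjusted over these genes, and a call needs an FDR under 0.1 and 1.5-fold, the thresholds of the study. The test was run on simulated counts with changes of 2-fold and 4-fold. These are larger than the changes of the members, so changes of that size were not checked. Normalized CPM uses TMM library sizes, log2 levels use a prior count of 2, and RPKM uses merged exon lengths of GENCODE M21, which lacks 849 of the 46040 identifiers and gave gene overlaps. Exact 2-sided permutation tests used all 70 splits into 4 and 4. Library totals of 11449137 to 16239670 counts make a CPM of 1 equal to about 11 to 16 reads, which sets the counting error.

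Lists covered the further pathway genes by role, arterial and venous endothelium, and markers of endothelium, pericytes, smooth muscle, cardiomyocytes, fibroblasts, leukocytes, endocardium, atrium and red cells. Named genes are all members, Flt1, listed pathway genes with an unadjusted p under 0.05, no overlap or the highest RPKM of a list, the lowest and highest gene of a marker list, and the 3 genes most correlated with each member, of which 1 is not reported here. Acta1, Lfng, Notch2, Hes1, Nrarp, Efnb2 and the genes too low to test were named in addition. Members and lists were chosen with earlier results of these data known. As alternatives, the comparison was run with DESeq2 1.42.0, the likelihood ratio test, RLE factors, total counts, no filter, filterByExpr, a prior count of 0.5, summed markers, the replicate block and each library left out. Baseline cardiomyocyte libraries were not analysed here.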

Additional observations from a re-analysis of the deposited data

Results flagged for a closer look

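Of 38 groups of 4 libraries examined, 2 held a library farther from the others than Dixon's 95% critical value for the gap divided by the range, and chance gives about 1 in 20. Both came from control-tagged replicate 2. Rbpj was at 28.3 CPM in this library and at 21.9 to 22.9 CPM in the other control-tagged libraries, a ratio of 0.833. The mean log2 level of the cardiomyocyte markers was lower in it than in the other control-tagged libraries, with a ratio of 0.870.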

How the results depend on the processing

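All 10 members kept the sign of their log2 fold change in 15 of 15 alternatives, and none was called in any, with a lowest FDR of 0.143, for Notch3. Notch1, Notch3 and Heyl had an unadjusted p under 0.05 in 15 of 15, Dll4 in 13, Jag2 in 11, Hey1 in 10, Notch4 in 2 and Jag1, Hey2 and Rbpj in 0. With single libraries left out, members lower at p under 0.05 numbered 3 to 7, members without overlap 2 to 5, marker comparisons at p under 0.05 0 to 2, ratios 0 to 1, other pathway genes lower 4 to 11 and higher 0 to 1, in fits with fewer samples. Over all genes, 462 to 872 were lower at p under 0.05 in these fits. The summed marker level gave 1 marker comparison. Other pathway genes called were 1 each by the likelihood ratio test, DESeq2 and no filter, the gene being Neurl1b, and the likelihood ratio test also called the venous gene Vwf (-0.62). Over all genes these 3 settings called 53, 32 and 23 in place of 1, and the cause was not tested. Differences near 0 changed sign as libraries were left out: Heyl against pericyte markers ranged from -0.034 to 0.11, Jag1 and Notch4 against endothelial markers from -0.051 to 0.099 and from -0.051 to 0.090, and the ratio of Heyl to Hey1 from -0.12 to 0.18.

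Replicate numbers did not pair the libraries. Same-numbered libraries had correlations of -0.06 to 0.34 between their deviations from the group means, and 2 of 8 libraries correlated best with their own number. With the replicate block, 6 members were lower at p under 0.05 with a median of -0.35, and 8 other pathway genes were lower, with 0 called. Counting error is largest for Hey2 among the members, at 40 to 61 counts. With 4 libraries per group, changes of the size seen in the members did not pass adjustment over 13542 genes.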

Other observations

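Other cell types than those above were also read through their markers. Of all genes, 50.3% were lower by sign and 5.64% were lower at an unadjusted p under 0.05. By mean log2 level, fibroblast markers differed by -0.20, leukocyte markers by -0.20 and red cell genes by -0.28. The exact permutation p-values were 0.457, 0.229 and 0.514, so none of these differences was larger than the spread between libraries. All 7 fibroblast markers had lower values in the TK-/- tagged libraries, from -0.39 for Col1a1 to -0.09 for Dpt, with a median log2 fold change of -0.12 and 0 at an unadjusted p under 0.05. The fibroblast sum was 1900 to 2175 CPM in control-tagged and 1437 to 2326 CPM in TK-/- tagged libraries. Of 8 leukocyte markers 7 were lower, with a median of -0.24. Csf1r, the macrophage receptor for CSF1, was the lowest at -0.49 (FDR = 0.464 by edgeR, 1 of the list at an unadjusted p under 0.05), and Cd3e, a T cell gene with at most 20 counts, was the highest at 0.43. The leukocyte sum was 387 to 509 CPM against 260 to 399 CPM. Red cell genes, 5 of 5 lower with a median of -0.37, ranged from -0.48 for Hba-a2 to -0.20 for Alas2 and varied widely, with a sum of 309 to 766 CPM against 359 to 601 CPM. Atrial markers were near 0, at a sum of 3.68 to 5.90 CPM over all 8 libraries, with Myl7 at 0.02 and Myl4 at 0.15.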
